A study of Mus musculus with 6 samples.

Results

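Rab GTPases are small GTP-binding proteins that mark the membranes of the secretory and endocytic pathways. The deposited table was searched for gene names made of "Rab" with a number and at most 1 letter and 1 further digit, which leaves out interacting proteins and pseudogenes. This gave 59 genes of 46450 gene symbols, and 44 of the 59 reached at least 1 CPM (the deposited unit, counts scaled to a common total per library and rounded to whole numbers) in at least 3 of the 6 libraries. The libraries were made from cardiomyocytes, the contractile cells of the heart, isolated from hearts of C57BL/6 mice aged 3 months. A group of 3 libraries was wild type and a group of 3 was TFEB-/-, and no treatment is named for either. The comparison asks which transcripts of these cells differ when TFEB is missing. TFEB is a transcription factor whose known targets are genes of lysosome formation and autophagy. The labels name no promoter, Cre driver or deleted exon for the TFEB-/- genotype and do not say whether the samples came from separate animals, so p-values measure the spread between these libraries only.

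A Rab protein is switched on when an exchange factor loads it with GTP and switched off when a GTPase-activating protein makes it hydrolyse the GTP. In the GTP state it recruits effectors, such as motors, tethers and coats. Lipid anchors on its C-terminus, usually 2 and usually added by a dedicated transferase, hold it on the membrane until a GDP dissociation inhibitor (GDI) extracts it. In muscle cells Rab proteins are best known for moving the glucose transporter GLUT4 to the surface, for recycling membrane proteins through endosomes, and for the fusion of autophagosomes and endosomes with lysosomes.

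The libraries each summed to between 999505 and 999655 CPM, and the read depth behind each value is unknown, so no counting error can be given. Tfeb itself was at 17, 30 and 23 CPM in the wild type and 6, 5 and 7 CPM in TFEB-/-, so the groups did not overlap (log2 fold change −1.85, SE 0.24, limma adjusted p = 0.0267, exact permutation p = 0.1, the smallest that 3 against 3 allow). That call did not hold when any 1 library other than wild type 1 was left out (limma adjusted p = 0.0589 to 0.109). All 8 cardiomyocyte markers looked up were measured, with Myh6 between 18996 and 33390 CPM. Transcripts of the mitochondrial genome took 30.7, 33.9 and 44.6% of the wild-type libraries and 22.2, 30.3 and 25.3% of the TFEB-/- libraries, without overlap. Marker sums of other heart cells ran from 242 to 353 and from 238 to 266 CPM for endothelial cells, from 102 to 125 and from 117 to 157 CPM for fibroblasts, from 159 to 189 and from 146 to 174 CPM for smooth muscle and pericytes, and from 18 to 25 and from 36 to 45 CPM for macrophages and leukocytes, in wild type and TFEB-/- respectively. On the deposited scale only the last of these sums did not overlap, and no such sums were formed on another scale. After the median-ratio rescaling described below, 5 of 8 endothelial markers were lower and 0 higher at an unadjusted limma p below 0.05. For smooth muscle and pericytes 3 of 7 were lower and 1 higher, beside 9.79% and 12.5% of all tested genes. As deposited, Cspg4, of smooth muscle and pericytes, was called higher, at 10, 12 and 11 against 29, 21 and 21 CPM (limma adjusted p = 0.0374). It was 1 of 7 tested in its list, of which 3 had a log2 fold change above 0. Pdgfra, 1 of 8 fibroblast markers, was also called, at 2 CPM throughout wild type and 3 CPM throughout TFEB-/-. In a bulk library fewer cells of a type and less RNA per cell cannot be told apart.

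Most Rab transcripts had small estimated differences between the genotypes, with 27 of the 44 within 0.25 of no change on the log2 scale. This count takes in noisy genes whose change is not known to be small, such as Rab7b (limma interval −1.75 to 1.75) and Rab43 (−0.89 to 1.38). It was 29 after the median-ratio rescaling described below, and no such count was made over all tested genes. A small set of low-abundance members, Rab13, Rab31, Rab4b, Rab15 and Rab33b, was at higher values in every TFEB-/- library. Rab13 alone passed limma's threshold of an adjusted p of 0.05 over the 12437 genes tested, in the higher direction. The macrophage and leukocyte marker sum was also higher in every TFEB-/- library, at 38, 45 and 36 CPM against 18, 20 and 25 CPM in the wild type. The part of such cells in the values of these members was not tested. The count of 1 in 44, or 2.27%, stands beside 4.44% of all tested genes called in either direction and 3.92% called higher. At an unadjusted p below 0.05 there were 5 members higher, 11.4%, and 0 lower, beside 21.1% and 2.3% of all tested genes. The groups did not overlap in 10 of the 44 members, 22.7%, beside 23.4% of all tested genes. Of these 9 were higher (beside 21.2% of all tested genes, the members being Rab13, Rab15, Rab1a, Rab31, Rab33b, Rab35, Rab4b, Rab5a and Rab8a) and 1, Rab10, was lower (beside 2.28%). On the deposited scale the counts of Rab genes called or without overlap thus lay at or below the background of the whole table.

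The median log2 fold change was 0.22 over the 44 members and 0.24 over all tested genes, and 36 members lay above 0 (81.8%, beside 74.3% of all tested genes), 6 below and 2 at 0. After rescaling of the libraries by median ratio, so that the typical gene keeps its level, the median of all genes became 0.01 and that of the Rab genes −0.004, with 22 members above 0 and 22 below, beside 50.7% of all tested genes above 0. At an unadjusted p below 0.05 there were then 5 members higher (the 5 named above) and 4 lower (Rab10, Rab11a, Rab18 and Rab28), beside 12.5% and 9.79% of all tested genes. At the threshold 2 members were called on that scale, Rab13 and Rab31, both higher (2 of 44, beside 5.48% of all tested genes, 3.87% higher and 1.61% lower, or 481 and 200 genes against 487 and 65 on the deposited scale). The groups then did not overlap in 13 members, 29.5%, beside 26.1% of all tested genes. Of these 6 were higher, beside 14.3%, and 7 lower, beside 11.8%. The higher ones were Rab13, Rab15, Rab31, Rab33b, Rab4b and Rab8a, and the lower ones were Rab10, Rab11a, Rab14, Rab18, Rab21, Rab28 and Rab2a. The direction of 7 of the 10 most abundant members therefore rests on the scale, while those named among the higher ones on both scales, and Rab10, kept their direction.

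**Figure D1:**
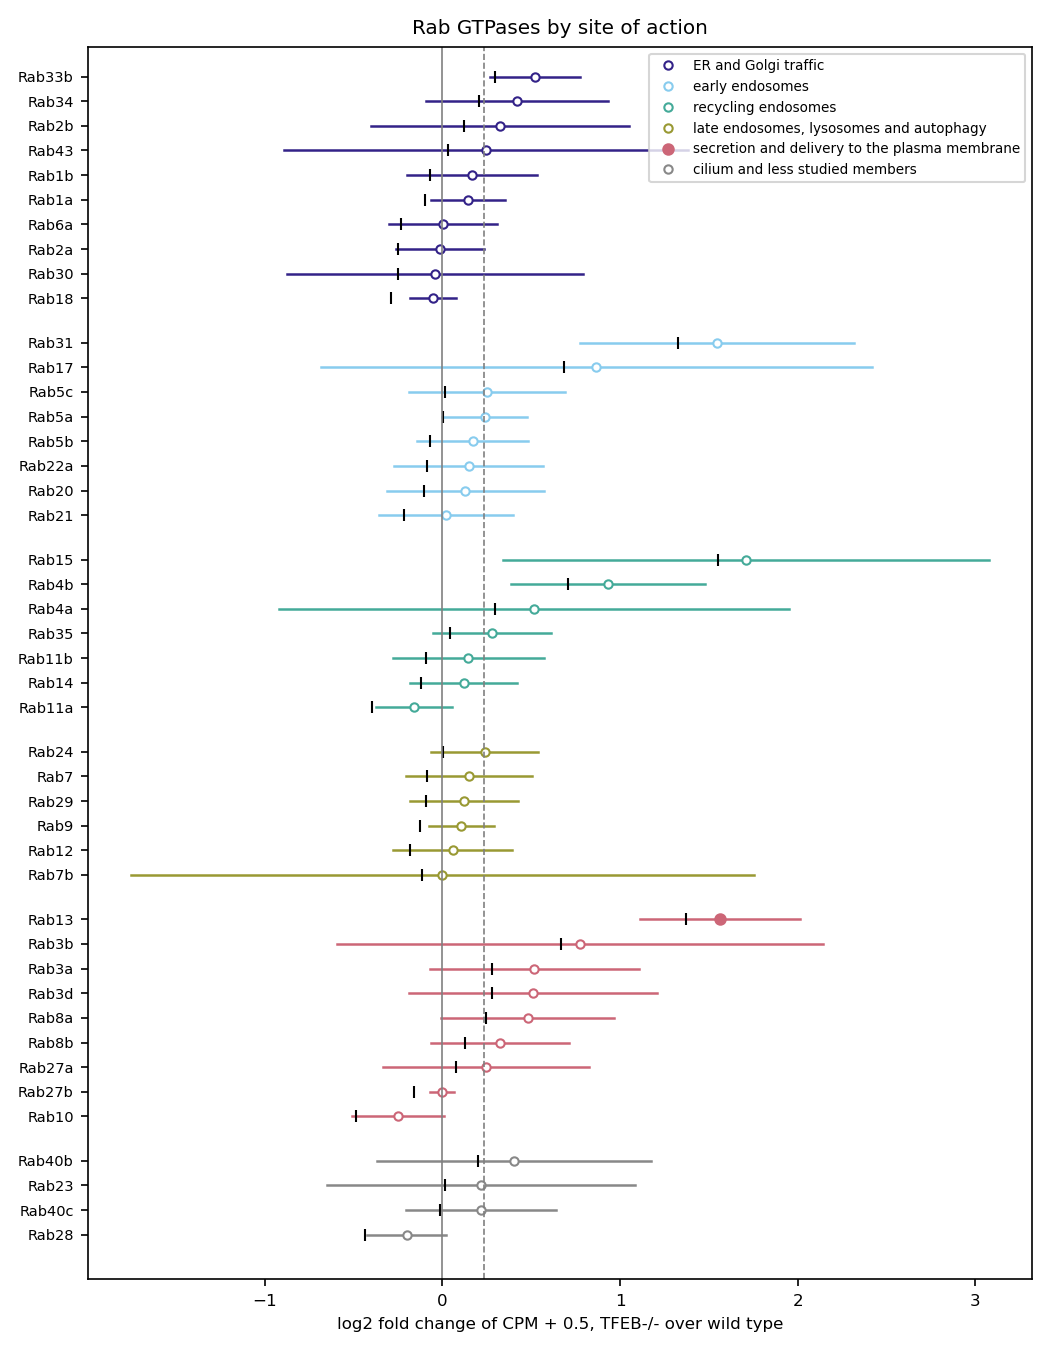
Log2 fold change of TFEB-/- over wild type for the 44 Rab genes tested, with 95% confidence intervals from limma, ordered within 6 sites of action. Filled point: adjusted p below 0.05 (Rab13, 1.56). Solid line: 0. Dashed line: median of all tested genes, 0.24. Black ticks: the estimate with median-ratio scaling, on which Rab7, Rab1b and Rab11b fall on the other side of 0.

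The summed level of the 59 genes was 1602, 1570 and 1304 CPM in the wild type and 1703, 1555 and 1673 CPM in TFEB-/- (1492 ± 164 and 1644 ± 78.2 CPM, SD, n = 3). The groups overlapped, and wild type 3, the library with the highest mitochondrial share, was the lowest. It was also the lowest wild-type library for 28 of the 44 members, with 11 tied. Rescaled to the same total over the transcripts outside the mitochondrial genome, the sums were 2313, 2375 and 2355 in wild type and 2190, 2230 and 2239 in TFEB-/-. On this scale every TFEB-/- library lay below every wild-type library, by 128 on average, opposite to the deposited scale. With median-ratio scaling the groups overlapped, at 1616 ± 55.9 and 1514 ± 69.3.

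**Figure D2:**
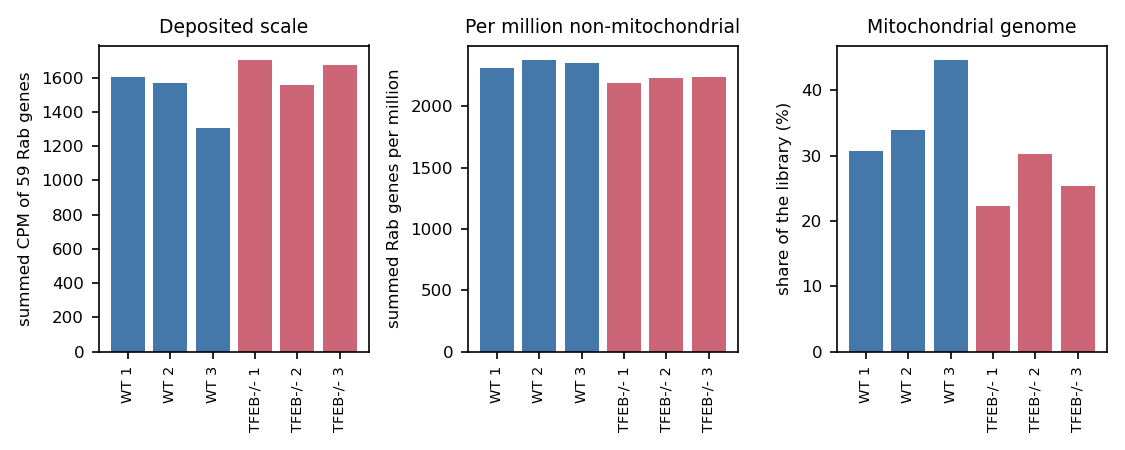
Summed Rab level in each library as deposited (left), rescaled without the mitochondrial genome (middle), and the share of the mitochondrial genome (right). Bars are single libraries. Wild type 3 has the lowest bar on the left, 1304 CPM, and the highest mitochondrial share, 44.6%, while in the middle the 3 TFEB-/- bars, 2190 to 2239, are the lowest.

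Among the Rab proteins of secretion and delivery to the plasma membrane, Rab13 was higher, Rab10 was at lower values and Rab8a at higher values in TFEB-/-. Of 12 such genes 9 were tested, with 1 higher and 0 lower at the threshold and a median log2 fold change of 0.48, or 0.25 with median-ratio scaling. Rab13 (ENSMUSG00000027935, GRCm38 chromosome 3, 90213695 to 90226385, plus strand) acts at cell junctions and in GLUT4 delivery in muscle cells. It was at 1 CPM in each wild-type library and at 5, 3 and 4 CPM in TFEB-/-. Every TFEB-/- value was thus above every wild-type value, also within the 0.5 CPM that rounding hides on either side if values were rounded to the nearest whole number (up to 1.5 CPM in the wild type and from 2.5 CPM in TFEB-/-). The log2 fold change was 1.56 (SE 0.17, limma adjusted p = 0.0164), and it was 1.37 with median-ratio scaling (adjusted p = 0.0138). The 3 wild-type values show no spread at whole-number resolution, as in 291 of the 552 genes called. The call was lost without wild type 1, 2 or 3 (adjusted p = 0.0553, 0.0733 and 0.0793) or TFEB-/- 3 (adjusted p = 0.0803), and the gene fell below a filter of 5 CPM.

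The promoter window of the called gene is printed here. RefSeq gives Rab13 starts with 2 windows of 300 bases (250 before to 50 after the start, GRCm38.p6), and the upstream one is at chr3:90213465-90213764, plus strand. It is in lower case throughout, since the E-box letters searched below (CACGTG) were found in neither window.
Rab13: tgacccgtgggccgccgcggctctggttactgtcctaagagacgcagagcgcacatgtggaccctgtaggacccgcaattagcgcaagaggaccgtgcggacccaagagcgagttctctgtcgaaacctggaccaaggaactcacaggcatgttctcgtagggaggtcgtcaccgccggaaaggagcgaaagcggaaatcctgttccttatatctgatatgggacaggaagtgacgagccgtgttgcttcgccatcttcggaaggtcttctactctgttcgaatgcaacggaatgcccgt

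Rab10, which drives GLUT4 vesicles to the surface in fat cells and also acts in muscle, had the highest CPM of this group. It was at 78, 66 and 68 CPM in the wild type and 55, 65 and 58 CPM in TFEB-/- (70.7 ± 6.43 and 59.3 ± 5.13 CPM). The groups did not overlap, although wild type 2 and TFEB-/- 2 were 1 CPM apart. Its log2 fold change was −0.25 (SE 0.10, limma adjusted p = 0.226) as deposited and −0.49 with median-ratio scaling (adjusted p = 0.0879), past the threshold in neither. Rab8a, which acts in the same exocytic step and in cilia, was at 17, 15 and 12 CPM in the wild type and 25, 18 and 19 CPM in TFEB-/-. Its groups did not overlap either, although wild type 1 and TFEB-/- 2 were 1 rounding step apart, at 17 and 18 CPM. The log2 fold change of Rab8a was 0.48 (SE 0.19, limma adjusted p = 0.217), and the estimate was 0.25 with median-ratio scaling. Rab3a, a Rab of regulated exocytosis best known from synaptic vesicles, was at 47, 41 and 31 CPM in the wild type and 63, 44 and 64 CPM in TFEB-/-. The groups overlapped through TFEB-/- 2, and the log2 fold change was 0.52 (95% interval −0.07 to 1.105). Its relative Rab3d was at 7, 7 and 12 against 10, 12 and 15 CPM. The remaining Rab3b, Rab8b, Rab27a and Rab27b were at 0 to 3 CPM in every library, where a difference of 1 rounding step cannot be resolved.

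**Figure D3:**
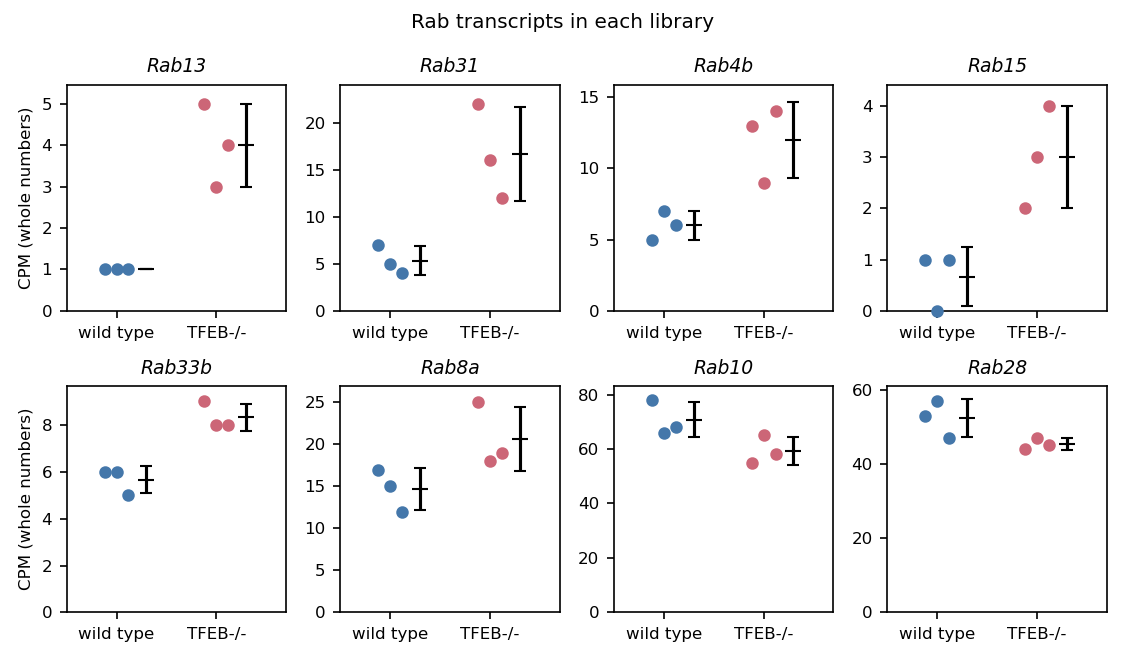
CPM of 8 Rab genes in each library (points), with the mean and SD of each group (black, n = 3), every axis starting at 0. Rab13, Rab31, Rab4b, Rab15, Rab33b and Rab8a have all TFEB-/- points above all wild-type points. Rab10 has them below, and Rab28 touches at 47 CPM.

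In the early endosome group Rab31 was at about 3 times its wild-type level in TFEB-/-, and the other abundant members differed little. All 8 genes of the group were tested, none passed the threshold on the deposited scale, and their median log2 fold change was 0.20, or −0.03 with median-ratio scaling. Rab31 (ENSMUSG00000056515, chromosome 17, 65651729 to 65772752, minus strand), also called Rab22b, works between the trans-Golgi network and endosomes. It was at 7, 5 and 4 CPM in the wild type and 22, 16 and 12 CPM in TFEB-/- (5.33 ± 1.53 and 16.7 ± 5.03 CPM). The lowest TFEB-/- library was at 12 CPM and the highest wild-type library at 7 CPM. The log2 fold change was 1.55 (SE 0.30, limma adjusted p = 0.0627). It was called with median-ratio scaling (estimate 1.32, adjusted p = 0.014), quantile normalization (adjusted p = 0.0477), scaling without mitochondrial transcripts (adjusted p = 0.0221), a filter of 5 CPM (adjusted p = 0.0074) and robust hyperparameters (adjusted p = 0.00564), and was not called when any 1 library was left out (adjusted p = 0.0781 to 0.168). Of the 8 macrophage and leukocyte markers, whose sum was higher in the same libraries, 6 were tested and 0 passed. All 6 had a log2 fold change above 0, from 0.58 to 1.13 with a median of 0.76, beside 0.24 over all tested genes. The 6 also lay above 0 with median-ratio scaling, with a median of 0.55. Lyz2 was the most abundant at 6 to 9 and 14 to 20 CPM (limma adjusted p = 0.0544). Ptprc was listed at 0 in every library and Itgam at 0 or 1 CPM. The part of such cells in the Rab31 values was not tested.

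The other early endosome genes with more than 10 CPM differed by at most 0.25 on the log2 scale. Rab5b, one of the 3 Rab5 proteins that set up early endosomes and their fusion, had the highest CPM, at 83, 74 and 62 CPM in the wild type and 85, 78 and 82 CPM in TFEB-/-. The groups overlapped, with a log2 fold change of 0.17 (95% interval −0.14 to 0.48). Rab5a was at 22, 21 and 18 against 24, 25 and 23 CPM, with 1 CPM between the groups, and Rab5c at 27, 28 and 20 against 34, 27 and 28 CPM. Rab22a, the closest relative of Rab31 and a recycling Rab, was at 49, 42 and 33 CPM in the wild type and 42, 46 and 48 CPM in TFEB-/- (a log2 fold change of 0.15, 95% interval −0.27 to 0.57). Rab21, which moves integrins, and Rab20, found on phagosomes, had log2 fold changes of 0.02 and 0.13. The epithelial Rab17 was at 2, 1 and 1 CPM in the wild type and 6, 3 and 1 CPM in TFEB-/-, with the highest value in TFEB-/- 1 and overlapping groups, TFEB-/- 3 lying below wild type 1.

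Among recycling Rab proteins, the fast-recycling Rab4b and the low-abundance Rab15 were at higher values in every TFEB-/- library, while Rab11b overlapped between the genotypes. Of 8 genes 7 were tested and 0 passed, with a median log2 fold change of 0.28, or 0.04 with median-ratio scaling. Rab4b (ENSMUSG00000053291, chromosome 7, 27168424 to 27178896, minus strand) returns receptors from early endosomes straight to the surface. It was at 5, 7 and 6 CPM in the wild type and 13, 9 and 14 CPM in TFEB-/- (6 ± 1 and 12 ± 2.65 CPM), without overlap. The log2 fold change was 0.93 (SE 0.21, limma adjusted p = 0.086). With median-ratio scaling it was 0.70 (adjusted p = 0.103), and it was called only with a filter of 5 CPM (adjusted p = 0.0271) and robust hyperparameters (adjusted p = 0.0229) among the alternatives run. Rab15, a recycling Rab best known in neurons, was at 1, 0 and 1 CPM in the wild type and 2, 3 and 4 CPM in TFEB-/- (a log2 fold change of 1.71, SE 0.53, limma adjusted p = 0.152). It was called only with robust hyperparameters (adjusted p = 0.0475). Its groups are separated by 1 rounding step.

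Rab11b, a Rab of the slow recycling compartment, was at 165, 166 and 126 CPM in the wild type and 184, 142 and 179 CPM in TFEB-/- (a log2 fold change of 0.15, 95% interval −0.28 to 0.57). Wild type 3 held the lowest value and TFEB-/- 2 the next, and the groups overlapped. Rab11a was at 33, 35 and 36 against 28, 32 and 33 CPM (log2 fold change −0.16, 95% interval −0.38 to 0.05), and −0.40 with median-ratio scaling (adjusted p = 0.194). Rab14, which links the Golgi and endosomes and also rides on GLUT4 vesicles, was at 74, 66 and 59 against 80, 69 and 67 CPM (log2 fold change 0.12, and −0.12 with median-ratio scaling). Rab35, a recycling Rab of the cell surface, was at 37, 36 and 28 against 42, 38 and 42 CPM. Rab4a was at 11, 12 and 3 CPM in the wild type and 13, 11 and 9 CPM in TFEB-/-. Wild type 3 was the single low library, and the log2 fold change of 0.52 had a 95% interval from −0.92 to 1.95.

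None of the Rab proteins of the endoplasmic reticulum and Golgi passed the threshold, and the abundant ones differed by less than 0.25 on the log2 scale. Of 16 genes 10 were tested, with a median log2 fold change of 0.16, or −0.08 with median-ratio scaling. Rab1b and Rab1a, which drive transport from the endoplasmic reticulum to the Golgi, were both measured at high values. Rab1b was at 147, 176 and 138 CPM in the wild type and 184, 148 and 186 CPM in TFEB-/- (a log2 fold change of 0.17, 95% interval −0.20 to 0.53). Rab1a was at 92, 91 and 79 against 101, 95 and 93 CPM (log2 fold change 0.14, 95% interval −0.07 to 0.35), with 1 CPM between the groups. Rab2a, a Golgi Rab that also acts in autophagosome fusion, was at 85, 88 and 72 against 77, 81 and 84 CPM (log2 fold change −0.01, 95% interval −0.26 to 0.23). For these abundant genes the intervals leave out a 2-fold change in either direction (±1 on the log2 scale, on the deposited scale). So do the intervals of 30 of the 44 members, but these include genes of a few CPM whose intervals do not count rounding. Rab27b, at 1 CPM in every library, had an interval of −0.07 to 0.07, so for such genes a 2-fold change is not left out.

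Rab18, found on the endoplasmic reticulum and lipid droplets, was at 39, 38 and 37 CPM in the wild type and 36, 36 and 38 CPM in TFEB-/- (log2 fold change −0.05, and −0.29 with median-ratio scaling, where the groups did not overlap). The retrograde Golgi Rab6a was at 41, 37 and 32 against 36, 40 and 34 CPM, beside the opposite-strand gene Mrpl48 whose exons share 708 bases with it. Rab33b (ENSMUSG00000027739, chromosome 3, 51483920 to 51496232, plus strand), a Golgi Rab that binds the autophagy protein Atg16l1, was at 6, 6 and 5 CPM in the wild type and 9, 8 and 8 CPM in TFEB-/-. Its groups did not overlap (log2 fold change 0.52, SE 0.10, limma adjusted p = 0.0608), and the estimate was 0.30 with median-ratio scaling (adjusted p = 0.168). Rab30, Rab34 and Rab2b were at 2 to 6 CPM in every library.

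Rab43, a Golgi Rab, shares most of its exons with another entry of the table, and the authors' counting could split reads between them. It was at 6, 7 and 4 CPM in the wild type and 4, 6 and 12 CPM in TFEB-/-, so that the TFEB-/- libraries held both a value as low as the lowest wild-type one and the highest of all. The entry Gm45140 on the same strand shares 4164 of the 5526 exonic bases of Rab43 in GENCODE M21, and it was at 4, 0 and 4 CPM in the wild type and 12, 6 and 0 CPM in TFEB-/-. It was at 0 exactly where Rab43 was highest in each group. Added together, the 2 entries were at 10, 7 and 8 CPM in the wild type and 16, 12 and 12 CPM in TFEB-/- (8.33 ± 1.53 and 13.3 ± 2.31 CPM), and the groups did not overlap. This sum was formed after the values were seen, so it is given without a test. Among the overlapping entries of other tested members on the same strand, Gm21983 shares 1280 of the 1970 exonic bases of Rab4b and was listed at 0 in every library.

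**Figure D4:**
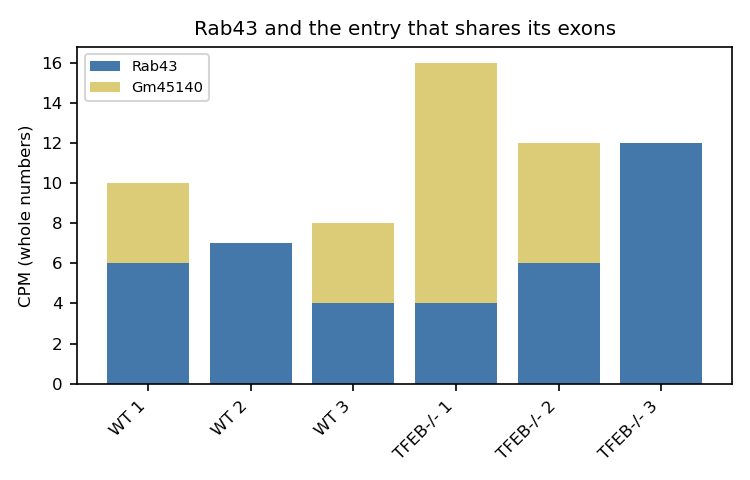
CPM of Rab43 (blue) and of Gm45140 (yellow), an entry with shared exons, stacked for each library. The height of a bar is their sum, 7 to 10 CPM in the wild type and 12 to 16 CPM in TFEB-/-. Wild type 2 and TFEB-/- 3 hold Rab43 only.

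The Rab proteins of late endosomes, lysosomes and autophagy, the compartments tied to TFEB, showed no member past the threshold, beside 4.44% of all tested genes. Of 9 genes 6 were tested, and none had an unadjusted p below 0.05, beside 23.3% of all tested genes. The groups overlapped in each, while 23.4% of all tested genes did not overlap. At these shares 6 genes are too few to set this group apart. The log2 fold changes of the 6 ran from 0 to 0.24 with a median of 0.11, and the median was −0.10 with median-ratio scaling. Rab7, the Rab of fusion with lysosomes and the most abundant Rab transcript in CPM, was at 206, 187 and 151 CPM in the wild type and 213, 185 and 202 CPM in TFEB-/- (SD 27.9 and 14.1 CPM). TFEB-/- 2 lay below 2 wild-type libraries, and the log2 fold change was 0.15 (95% interval −0.20 to 0.50). Rab12, which sends receptors from recycling endosomes to lysosomes, was at 129, 127 and 105 against 109, 136 and 131 CPM (log2 fold change 0.06, 95% interval −0.28 to 0.39). Rab9, which returns receptors from late endosomes to the Golgi, was at 14, 13 and 12 CPM in the wild type and at 14 CPM in each TFEB-/- library. Rab24, linked to autophagy, was at 22, 25 and 22 against 27, 24 and 31 CPM. It shares 1258 exonic bases with Prelid1 on the opposite strand, and whether the reads were assigned by strand is not given in the sources used here. Rab29, a partner of the kinase Lrrk2, was at 3 or 4 CPM and Rab7b at 0 or 1 CPM in every library.

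Of the 6 genes of the cilium and less studied members, 4 were tested and 0 passed. Rab28, found in cilia and photoreceptors, was at 53, 57 and 47 CPM in the wild type and 44, 47 and 45 CPM in TFEB-/- (52.3 ± 5.03 and 45.3 ± 1.53 CPM). Wild type 3 and TFEB-/- 2 shared the value 47 CPM, and the log2 fold change was −0.20 (SE 0.09, limma adjusted p = 0.243), or −0.44 with median-ratio scaling (adjusted p = 0.0762). Rab40c, part of a ubiquitin ligase, was at 10 to 12 CPM in the wild type and 11 to 16 CPM in TFEB-/-. Rab23, a brake on Hedgehog signalling, and Rab40b were at 2 to 5 CPM.

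Shares within sets of related transcripts do not depend on how a library is scaled, and these sets were put together with the values known. Rab31 made up 12.5, 10.6 and 10.8% of the summed CPM of Rab31 and Rab22a in wild type and 34.4, 25.8 and 20% in TFEB-/-, without overlap. Rab8a made up 17.9, 18.5 and 15.0% of Rab8a plus Rab10 in wild type and 31.2, 21.7 and 24.7% in TFEB-/-, also without overlap. Since Rab8a was higher and Rab10 lower in every TFEB-/- library, this share had to separate the genotypes. It is therefore no further evidence, and no test was run on it. Rab13 made up 1.04 to 1.23% of Rab13, Rab8a and Rab10 in wild type and 3.49 to 5.88% in TFEB-/-. The shares of Rab31 and Rab13 restate the separation already given for these genes in CPM. They are no further evidence either, and no test was run on them. The shares overlapped for Rab4b of the Rab4 pair, where wild type 3 had 66.7% and wild type 1 and 2 had 31.2 and 36.8%. They also overlapped for Rab11a of the Rab11 pair (16.7 to 22.2 and 13.2 to 18.4%), for Rab1a of the Rab1 pair (34.1 to 38.5 and 33.3 to 39.1%) and for each of the 3 Rab5 genes. Rab5b held 60.2 to 62.9% of the Rab5 sum in wild type and 59.4 to 61.7% in TFEB-/-.

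**Figure D5:**
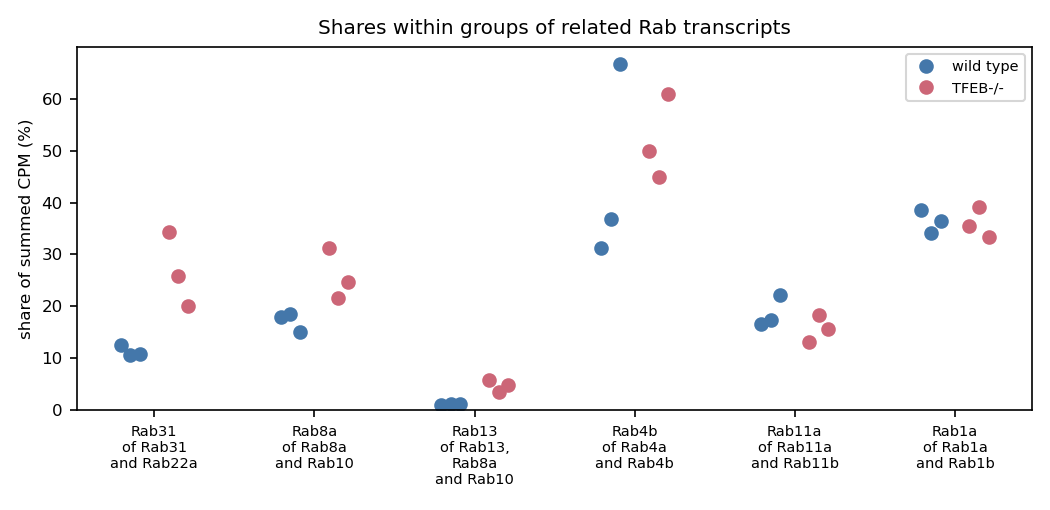
Share of the first-named gene in the summed CPM of related Rab genes, in percent, with 1 point for each library (blue wild type, red TFEB-/-, n = 3 each). The 3 sets on the left do not overlap between genotypes, as with Rab31 at 10.6 to 12.5% and 20 to 34.4%. These 3 restate differences already given in CPM and are no further evidence. The 3 on the right do overlap.

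Levels can be compared between genes only per length, so wild-type means were divided by the median length of each gene's protein-coding transcripts in the GENCODE M21 basic set. On this scale of CPM per kilobase Rab1b was the highest at 203 ± 26.2, followed by Rab7 at 103 ± 15.9, Rab12 at 59 ± 6.53, Rab11a at 47.8 ± 2.10, Rab11b at 39.8 ± 5.96 and Rab2a at 38.3 ± 3.99 (SD, n = 3). Rab11b and Rab2a lay within each other's spread, and so did Rab14, Rab1a, Rab18 and Rab28 at 32.0 to 33.1. Per kilobase of the longest transcript, Rab7 at 84.0 and Rab1b at 80.3 changed places and Rab11a was at 14.8, so the top order depends on the transcript used. In CPM, 10 genes (Rab7, Rab1b, Rab11b, Rab12, Rab1a, Rab2a, Rab5b, Rab14, Rab10 and Rab28) held 68.3% of the summed level of the 44. Rab27a, Rab27b and Rab8b were the lowest of the tested genes, at 0.325 to 0.423 CPM per kilobase in wild type. Whether the deposited values were already scaled by length is not stated.

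TFEB binds E-box sequences of the type called CLEAR, so the promoter windows of the Rab genes were searched for CACGTG and for the longer TCACGTGA, both of which read the same on either strand. RefSeq windows were found for 48 of the 59 genes and for 38 of the 44 tested. TCACGTGA was present in 3 of these 38, Rab5a, Rab21 and Rab24, or 7.89%, beside 205 of the 9399 tested genes with a window, or 2.18%, and 1.12% of all genes with a window. CACGTG, which TCACGTGA contains, was present in 6 of the 38 (15.8%), the further ones being Rab20, Rab23 and Rab27a, beside 11.8% of the tested genes and 8.09% of all genes with a window. The longer match of Rab5a began 96 bases before the annotated start, that of Rab21 began 31 bases before it, and that of Rab24 lay 1 base after it. These 3 windows, chosen after the search, are shown because they hold the letters TFEB is known to bind. Capitals mark TCACGTGA and, in Rab5a, a further CACGTG upstream. Rab5a is at chr17:53478984-53479283 (plus strand), Rab21 at chr10:115315542-115315841 (minus strand) and Rab24 at chr13:55321931-55322230 (minus strand), GRCm38.p6.
Rab5a: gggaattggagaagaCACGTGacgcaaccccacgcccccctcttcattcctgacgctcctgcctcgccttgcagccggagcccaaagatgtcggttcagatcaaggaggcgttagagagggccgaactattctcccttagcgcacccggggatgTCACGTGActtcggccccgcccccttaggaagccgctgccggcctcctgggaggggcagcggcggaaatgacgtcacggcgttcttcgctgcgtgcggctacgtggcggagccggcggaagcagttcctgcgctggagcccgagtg
Rab21: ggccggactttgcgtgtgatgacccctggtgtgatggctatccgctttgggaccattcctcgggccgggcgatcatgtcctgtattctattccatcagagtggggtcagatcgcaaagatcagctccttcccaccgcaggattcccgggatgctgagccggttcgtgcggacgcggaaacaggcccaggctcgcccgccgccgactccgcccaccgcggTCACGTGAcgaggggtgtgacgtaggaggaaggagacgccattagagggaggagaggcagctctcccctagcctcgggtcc
Rab24: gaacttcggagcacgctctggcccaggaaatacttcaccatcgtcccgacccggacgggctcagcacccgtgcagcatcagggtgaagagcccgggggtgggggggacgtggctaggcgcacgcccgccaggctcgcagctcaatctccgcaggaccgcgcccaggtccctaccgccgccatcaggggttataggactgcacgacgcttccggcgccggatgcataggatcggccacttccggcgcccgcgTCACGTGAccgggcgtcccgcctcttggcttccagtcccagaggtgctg
None of the 3 genes passed the threshold. Rab5a had a log2 fold change of 0.24 (95% interval −0.002 to 0.48), Rab21, at 34, 28 and 25 against 33, 28 and 27 CPM, one of 0.02 (−0.35 to 0.40), and Rab24 one of 0.24 (−0.06 to 0.54). With median-ratio scaling the estimates were 0.004, −0.21 and 0.004. A match is a description of the letters in this window and says nothing about binding in these cells, nor does the lack of a match in Rab13.

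The genes that load, remove, switch and read Rab proteins were counted in the same fit. Of 113 tested in 5 lists (lipid anchoring and GDI, exchange factors, GTPase-activating proteins, effectors, and the HOPS and CORVET tethers of lysosomes), 6 were higher and 1 lower, beside 3.92% and 0.523% of all tested genes. Their median log2 fold change was 0.23. With median-ratio scaling 3 were higher and 0 lower, beside 3.87% and 1.61%. Both counts lie near the background of the whole table. Rabgap1l, a Rab GTPase-activating protein, had the highest CPM of these 7, at 32, 28 and 29 CPM in the wild type and 54, 57 and 53 CPM in TFEB-/- (a log2 fold change of 0.87, SE 0.07, limma adjusted p = 0.00486). It stayed past the threshold with median-ratio scaling (estimate 0.64, adjusted p = 0.0233) and when any 1 library was left out (adjusted p = 0.00637 to 0.0285). It was 1 of 4 higher among 33 activating proteins, with Tbc1d10a at 5, 5 and 5 against 8, 7 and 8 CPM, and Tbc1d9 and Grtp1 both at 1 CPM throughout wild type and 2 CPM throughout TFEB-/-. The 3 other calls were lost with median-ratio scaling (adjusted p = 0.122 to 0.176), and that of Tbc1d10a also without any 1 library but TFEB-/- 2 (adjusted p = 0.0553 to 0.0861).

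Rab3il1, an exchange factor that acts on Rab3 and Rab8, was the 1 higher gene of 32 exchange factors. It was at 2 CPM in each wild-type library and 5, 4 and 4 CPM in TFEB-/- (a log2 fold change of 0.94, limma adjusted p = 0.0118), which did not hold with wild type 2 or wild type 3 left out (adjusted p = 0.0571 and 0.0615). Rabep2, an effector of Rab4 and Rab5 on early endosomes, was the 1 higher of 33 effectors. It was at 5 CPM in each wild-type library and 15, 10 and 10 CPM in TFEB-/- (a log2 fold change of 1.12, adjusted p = 0.0427), which held with TFEB-/- 1 left out but not with any other library left out (adjusted p = 0.0673 to 0.137). Chm, an escort protein that presents Rab proteins for lipid anchoring, was the 1 lower gene of 7 in its list, at 3 CPM throughout wild type and 2 CPM throughout TFEB-/-. That difference is 1 rounding step and was not called with median-ratio scaling (adjusted p = 0.0533). None of the 8 HOPS and CORVET genes passed, and 3 had an unadjusted p below 0.05 in the higher direction, beside 21.1% of all tested genes (2 higher and 1 lower with median-ratio scaling). The most abundant were Vps41 and Vps39, with log2 fold changes of 0.31 and 0.33, or 0.07 and 0.10 with median-ratio scaling.

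Of the relatives of the Rab family, 26 genes of the Arf, Arl and Sar families were tested, 0 passed, and 3 had an unadjusted p below 0.05 in the higher direction, again beside 21.1% of all tested genes. On the median-ratio scale 1 of the 26 was higher and 5 were lower at that level, beside 12.5% and 9.79% of all tested genes. The median log2 fold change of the 26 was 0.18, or −0.05 with median-ratio scaling, beside 0.22 and −0.004 for the Rab genes. Arf1 and Sar1a, the most abundant, had log2 fold changes of 0.19 and −0.05. Of 6 Rab-like genes 1 was higher, Rasef, listed at 0 in each wild-type and at 1 CPM in each TFEB-/- library, 1 rounding step apart, and 4 had an unadjusted p below 0.05 in the higher direction, beside the same 21.1%. Their median log2 fold change was 0.67, or 0.45 with median-ratio scaling, where 2 were higher.

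The remaining 15 Rab genes did not reach the minimum. Of these 14 were listed at 0 in every library: Rab6b, Rab19, Rab36, Rab39 and Rab39b of the Golgi group, the epithelial Rab25, Rab9b of late endosomes, Rab32 and Rab38 of melanosomes, the secretory Rab3c, Rab26 and Rab37, and Rab42 and Rab44. Rab33a was at 1 CPM in TFEB-/- 2 and at 0 elsewhere, the value nearest to the minimum from below. Just inside it, Rab7b was at 0, 1 and 1 CPM in both groups and Rab3b at 1, 1 and 0 against 2, 1 and 1 CPM. A value of 0 here means below 0.5 CPM after rounding, not absence.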

How the data were processed

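Poly(A) RNA of 3 wild-type and 3 TFEB-/- cardiomyocyte samples was sequenced from 400 ng of total RNA as pairs of 75 bases, per the labels' protocols. The authors deposited 1 table of 46517 entries whose name gives kallisto and CPM. Its values were recorded as a score, CPM rounded by the authors to whole numbers, since every value is whole and each library sums to 999505 to 999655. The submitters' processing notes list, with no version or role, the build GRCm38 and the tools kallisto, Salmon, RSEM, STAR, HISAT2, StringTie, edgeR and DESeq2. Read depth per library is not given in the sources used here, and counting error cannot be stated.

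Names turned into dates (26) were restored, 303 missing names were filled from Ensembl IDs where possible, and entries with the same symbol were summed to 46450 symbols. The 12437 genes that reached 1 CPM in 3 or more libraries were fitted with limma 3.58.1 under R 4.3.3 on log2(CPM + 0.5) with genotype as the only term and a trend of variance on mean. Tests were two-sided, with Benjamini-Hochberg adjustment across these 12437 genes. Count models were not used. Fold changes on this scale understate the change of low genes. The code of the fit was first tested on simulated data. That test is not taken here as a check of calls at a few CPM, such as Rab13. There, whole-number values can leave no spread within a group. Of the 552 genes called, 164 showed no spread in either group. Alternatives were other pseudocounts (1 and 0.1), filters (any value above 0, and 5 CPM) and scalings (median ratio, quantile, without mitochondrial transcripts), eBayes without trend or with robust hyperparameters, each library left out, and the replicate number as a block. The combination of median ratio and block was added after the data were seen. Errors after ± are SD over n = 3.

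The Rab genes and all lists were chosen with earlier results of these data known. Values per library are given for Rab genes that passed the threshold or had an unadjusted p below 0.05, for the 10 with the highest mean CPM, for those without overlap and a log2 fold change of at least 0.5 in size, and for the most abundant of each site of action. Outside the family, Tfeb and up to 2 higher and 2 lower called genes of each list are named, or the 2 most abundant where none passed. Further Rab genes, Rabgap1l, Tbc1d10a, Gm45140, Gm21983, Mrpl48, Prelid1 and the markers were named after their values were seen. Each Rab was placed in 1 site of action, though several act at more than 1. Protein sequences were not used here. Gene positions and exons are from GENCODE M21, promoter windows from RefSeq (GRCm38.p6).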

Additional observations from a re-analysis of the deposited data

How the results depend on the processing

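Rab13 was called in 11 of 16 alternatives (limma adjusted p = 0.00527 to 0.0878), Rab31 in 7 of 17 (0.00564 to 0.168), Rab4b in 2 of 17, Rab15 in 1 of 16, and Rab10, Rab28 and Rab33b in 0 of 17, all with an unchanged direction. The number of Rab genes called was 1 as reported. It was 2 with a filter of 5 CPM (Rab31 and Rab4b, Rab13 not tested), median-ratio scaling, quantile normalization, scaling without mitochondrial transcripts, and median ratio with the block (Rab13 and Rab31 each time), 4 with robust hyperparameters, and 0 to 1 with 1 library left out. It was 0 without each wild-type library, and 1 without TFEB-/- 1 or TFEB-/- 2 (Rab13) and without TFEB-/- 3 (Rab8b). Over all genes 552 were called, 487 higher and 65 lower. The total was 859 (780 higher) with robust hyperparameters, 185 (159 higher and 26 lower) with the replicate block, and 306 to 607 (248 to 516 higher) with 1 library left out. With median ratio and block 256 were higher and 121 lower. With median-ratio scaling, quantile normalization and scaling without mitochondrial transcripts 200, 172 and 190 were lower. Of the genes in the pathway lists 8 were called. The count was 5 with a filter of 5 CPM, median-ratio scaling and scaling without mitochondrial transcripts, 4 with the block, 1 with median ratio and block, and 5 to 8 with 1 library left out. The difference in summed Rab level, 152 CPM as deposited, was −102 with median-ratio scaling, −128 without mitochondrial transcripts, and 57.7 to 206.7 CPM with 1 library left out. The cause of these shifts was not tested.

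The values do not settle whether the replicate numbers pair the samples. The deviations of same-numbered libraries correlated at 0.20, −0.04 and 0.21 over 8585 genes. The values for numbers 1 and 3 were the highest of all pairs, since libraries of different number correlated at −0.30 to 0.11. Wild type 2 correlated best with TFEB-/- 3 (0.11). With the replicate block Rab13 had an adjusted p of 0.0878, Rab31 of 0.0173 and Tfeb of 0.112 (log2 fold change −1.85). With 1 library left out the log2 fold change of Tfeb was −2.05 to −1.65. Rabgap1l was called in 15 of 17 alternatives and lost with the replicate block (adjusted p = 0.0779) and with median ratio and block (0.0511). Rab3il1 was called in 12 of 16, Rabep2 in 10 of 17 and Tbc1d10a in 5 of 17.

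Abundant genes changed sign with the scale. With median-ratio scaling (the same values with the block), quantile normalization and scaling without mitochondrial transcripts, the log2 fold changes were −0.088, −0.063 and −0.075 for Rab7, −0.071, −0.043 and −0.057 for Rab1b, −0.093, −0.061 and −0.079 for Rab11b, −0.180, −0.179 and −0.167 for Rab12, −0.095, −0.110 and −0.081 for Rab1a, −0.068, −0.085 and −0.054 for Rab5b, and −0.119, −0.136 and −0.105 for Rab14. With 1 library left out Rab12 ran from −0.037 (no wild type 3) to 0.16, and was at −0.0039 when TFEB-/- 2 was dropped. Rab2a ran from −0.10 to 0.043, above 0 when wild type 1, wild type 2 or TFEB-/- 1 was dropped. None of these passed the threshold in any alternative. Rounding to whole CPM limits every gene of a few CPM.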
